A study of Homo sapiens with 61 samples.

Results

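Binding of the DNA damage sensor XPC was compared between ASH1L-/- U2OS cells collected 1 h after UV irradiation and unirradiated ASH1L-/- cells. The 6 libraries, 3 for each group, were chosen by their labels from the 61 samples of the series and are called biological replicates there. U2OS is an established human osteosarcoma line, and both groups are ASH1L-/- cells, made with CRISPR/Cas9 guides that delete DNA in exon 2 and exons 11 and 12 and grown from isolated colonies. The irradiated cells received UV-C light at 20 J/m2 and recovered for 1 h, and the other cells received none. Chromatin was immunoprecipitated with a polyclonal antibody against XPC, and the background of each list came from the corresponding immunoprecipitates of XPC-/- cells, pooled from 2 libraries. The lists of a group thus shared the same background, and effects of the background and of the group cannot be told apart. The values were lists of broad peaks, called in each library by itself. The XPC peaks bear on no part of the ASH1L deletion, so they do not check it, and effects of the deletion and of the colony that carries it cannot be told apart.

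XPC is the subunit that opens global-genome nucleotide excision repair. Together with RAD23B and CETN2 it binds helix distortions, and for cyclobutane pyrimidine dimers, which UV light forms mainly between adjacent thymines, it is helped by DDB2 and DDB1. TFIIH then verifies the lesion before the damaged strand is cut out. XPC is also found on undamaged chromatin at promoters of active genes, which carry trimethylated lysine 4 of histone H3 (H3K4me3). ASH1L is a histone methyltransferase that works with MRG15, the product of MORF4L1, and the study asked how it prepares chromatin for XPC.

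The following stretches of DNA were picked as the longest examples of a change between the groups in the peak lists, and were not tested. They come from runs of adjacent 1 kb tiles that were covered over at least 50% of their length in all 3 libraries of one group and in none of the other. Of the 3 longest runs in each direction, with ties settled by the bases that fitted the pattern in every library, the first and the third are printed. Each line gives 200 bases of the hg38 forward strand, centred on the longest part of a run that fitted the pattern in every library. Every TT and AA is in capitals, since an AA on this strand is a TT on the other and both can hold a thymine dimer.
gained at 1 h, chr9:136622260-136622459: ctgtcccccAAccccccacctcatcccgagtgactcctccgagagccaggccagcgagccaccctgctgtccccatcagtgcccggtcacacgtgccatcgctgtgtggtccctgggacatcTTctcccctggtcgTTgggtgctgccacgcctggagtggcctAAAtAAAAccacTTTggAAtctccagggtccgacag
gained at 1 h, chr6:118621901-118622100: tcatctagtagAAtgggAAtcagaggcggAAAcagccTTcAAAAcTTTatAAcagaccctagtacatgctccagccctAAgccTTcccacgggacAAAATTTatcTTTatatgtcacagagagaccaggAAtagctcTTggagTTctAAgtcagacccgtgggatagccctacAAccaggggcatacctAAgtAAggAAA
lost at 1 h, chr2:237253191-237253390: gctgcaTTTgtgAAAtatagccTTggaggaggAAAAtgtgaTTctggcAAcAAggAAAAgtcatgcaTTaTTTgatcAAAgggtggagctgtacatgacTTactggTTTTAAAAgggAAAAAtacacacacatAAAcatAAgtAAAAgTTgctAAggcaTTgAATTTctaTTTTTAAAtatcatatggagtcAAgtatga
lost at 1 h, chr16:89489251-89489450: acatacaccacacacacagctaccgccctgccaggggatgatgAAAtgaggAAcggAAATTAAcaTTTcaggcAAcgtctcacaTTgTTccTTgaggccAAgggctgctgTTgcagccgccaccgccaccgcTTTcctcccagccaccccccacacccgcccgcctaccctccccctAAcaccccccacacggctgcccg

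The chromosome 6 run, chr6:118621001-118623000, lies within CEP85L, 28.6 kb from its start site. All 2000 bases were under a peak in each of the 3 libraries at 1 h, and none was in any unirradiated library. The peaks were shallow, with fold enrichments over background of 1.80, 2.13 and 1.69. Their −log10 p reached 1.26, 1.44 and 1.12, under the limit of 2 that is stated for the calls. The chromosome 9 run, chr9:136621001-136624000, lies in no protein-coding gene, 38.9 kb from the start of EGFL7. Peaks covered 3000, 3000 and 2468 of its bases at 1 h against 214, 812 and 0 without UV. Its printed stretch held 11 TT or AA steps in 199, whereas the chromosome 6 stretch held 29.

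The longest lost run, chr2:237251001-237256000, spanned 5 tiles in intergenic DNA, 158 kb from the start of COL6A3. Peaks covered 3785, 3479 and 3500 of its bases without UV and 742, 637 and 0 at 1 h. The lost run at chr16:89488001-89491000 holds the start site of ANKRD11, a chromatin regulator. It had 3000, 2542 and 2618 bases under peaks without UV and 0, 439 and 0 at 1 h. Without UV the −log10 p reached 2.17, 1.75 and 1.75 in the chromosome 2 run and 2.09, 1.35 and 1.56 in the chromosome 16 run. The printed stretches of these runs held 49 and 18 TT or AA steps. The stretches of the runs not printed, chr15:101239001-101242000 in CHSY1 (gained) and chr10:36170001-36174000 (lost), held 41 and 48, so the number varied widely within both directions.

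Each of the 6 lists held 500000 peaks, which is the length at which most XPC lists of the series end, so numbers of peaks were not compared. The lists hold no read counts. Read totals that the study gives for its libraries are not in these files and were not used here. Peaks covered 380, 318 and 291 Mb in the unirradiated libraries and 311, 242 and 268 Mb at 1 h, which overlap. The means were 329.8 ± 45.6 without UV and 273.6 ± 34.6 Mb at 1 h (SD, n = 3 each, exact permutation p = 0.2, two-sided), where 0.1 is the smallest p that 3 against 3 libraries allow. Every 1 h library had narrower peaks than every unirradiated one, with median widths of 422, 364 and 396 bp against 520, 491 and 443 bp (exact permutation p = 0.1, n = 3 each). The weakest −log10 p that a list still held averaged 1.14 at 1 h and 1.32 without UV, also without overlap. Peaks at a −log10 p of 2 or more, the stated limit of the calls, numbered 4957, 26584 and 956 at 1 h and 52260, 27463 and 36251 without UV. The third 1 h library had no peak on chromosome X. Beside each raw value a scaled one is therefore given, in which the covered length of every library was set to the same total. The part of sequencing depth and of the peak limit in the differences below was not tested.

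The cells were checked against lineage markers by H3K4me3 at promoters in unirradiated ASH1L-/- cells. It was present at 8 of 10 mesenchymal and osteoblast genes, among them RUNX2, the bone transcription factor, and VIM, and absent at COL1A2 and TWIST1. At RUNX2 and VIM it covered 2.49 and 3.35 kb. Of the epithelial genes 5 of 10 carried the mark. It covered 2.98 kb at KRT18, 0.906 at ESRP1, 0.775 at KRT8, 0.679 at CLDN4 and 0.243 kb at EPCAM. Of the blood cell genes 1 of 10 carried it, IKZF1, over 1.73 kb.

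Promoters, taken as the DNA within 2 kb of a protein-coding start site, were the class most covered by XPC peaks. They make up 2.53% of the genome. Without UV 42.0%, 18.8% and 16.9% of promoter DNA lay under peaks, and at 1 h 19.1%, 19.5% and 13.6%. The first unirradiated library stood far above the other 5, which overlapped. The mean share was lower by 8.53 percentage points at 1 h (25.9 ± 14.0% against 17.4 ± 3.32%, SD, n = 3 each, exact permutation p = 0.6). Scaled, the difference was −3.60 points. Without the first unirradiated library the scaled difference was +1.73 points, so the direction of the scaled value rested on that library.

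**Figure D1:**
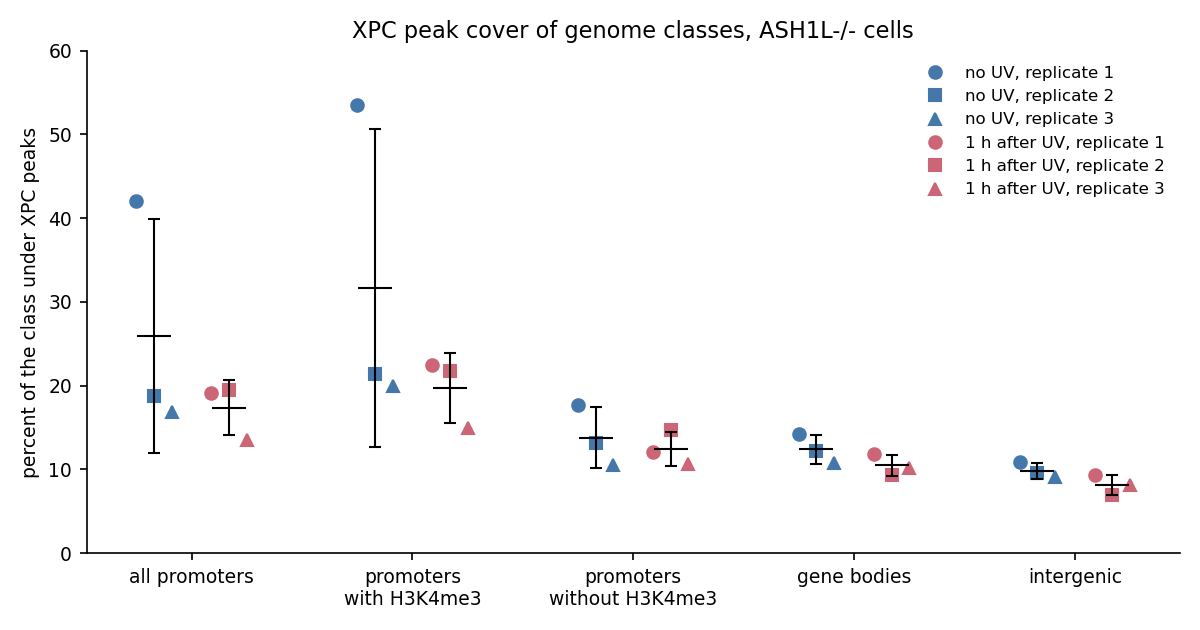
Percent of each genome class under XPC peaks in ASH1L-/- cells, with 1 point per library and bars for the mean and SD of 3 libraries. The first unirradiated library reaches 53.5% at promoters with H3K4me3, while the other 5 libraries lie between 14.9% and 22.4%.

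H3K4me3 divided the promoters. Of 19970 start sites, 13899 carried the mark in at least 2 of the 3 unirradiated ASH1L-/- libraries for H3K4me3 and 6071 did not. Marked promoters were covered over 53.5%, 21.4% and 20.0% of their DNA without UV and 22.4%, 21.8% and 14.9% at 1 h. The change was −11.9 points (exact permutation p = 0.6, n = 3 each) and −6.05 points when scaled. Without the first unirradiated library it was −0.999 points, and +1.42 points when scaled, so nearly all of the change rested on that library. Unmarked promoters were covered over 17.7%, 13.2% and 10.5% without UV and 12.1%, 14.7% and 10.7% at 1 h. This class changed by −1.30 points, which turned to +1.59 points after scaling and to +0.67 points without the first unirradiated library (exact permutation p = 0.7 for the raw value, n = 3 each).

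Gene bodies and intergenic DNA were more even between libraries. Gene bodies, 43.0% of the genome, were covered over 14.2%, 12.2% and 10.8% without UV and 11.8%, 9.39% and 10.2% at 1 h, a change of −1.90 points (exact permutation p = 0.2, n = 3 each). Intergenic DNA, 54.5% of the genome, was covered over 10.8%, 9.58% and 9.05% without UV and 9.36%, 6.96% and 8.19% at 1 h, a change of −1.65 points with the same p of 0.2 in the exact test. Scaled, the changes were +0.24 and −0.02 points. No class passed the test. Gene bodies and intergenic DNA make up nearly all of the genome, so that an equal total all but fixes their share, and the small scaled values follow from the scaling.

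**Figure D2:**
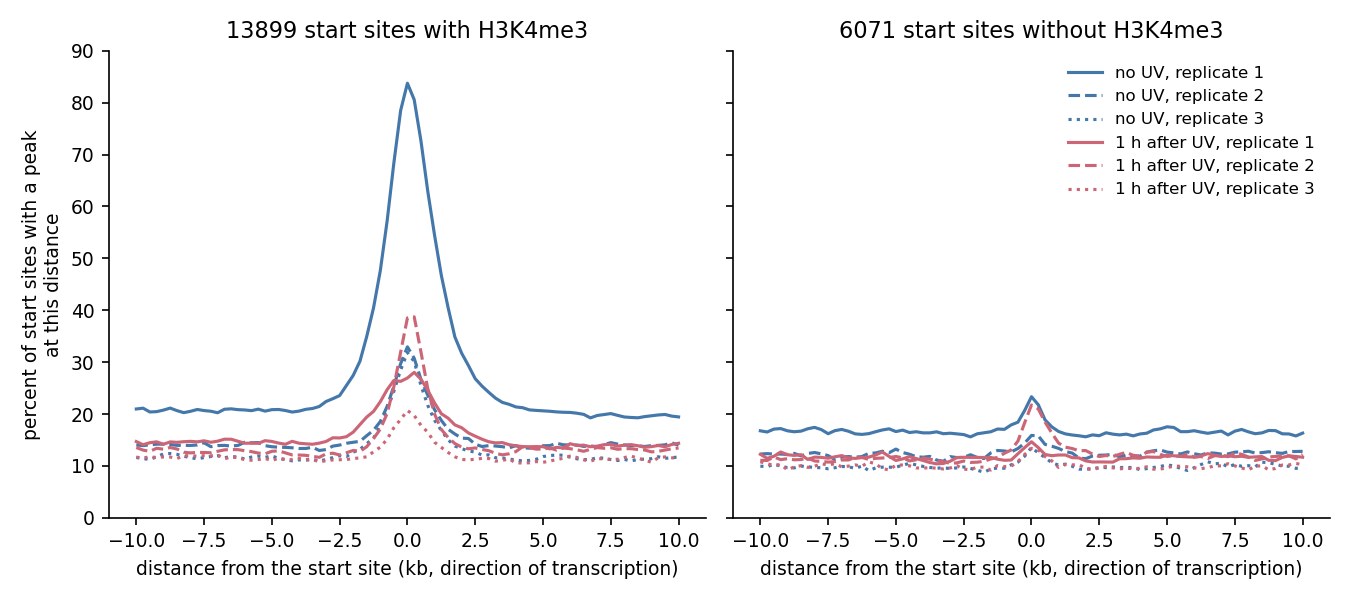
Percent of start sites that lie under an XPC peak at each distance in kb from the site, at steps of 0.25 kb and in the direction of transcription, with 1 line per library. At sites with H3K4me3 the first unirradiated library rises to 83.7%, and the other 5 libraries rise to between 20.7% and 38.7%.

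All 6 libraries had a summit of cover at start sites. At sites with H3K4me3 the start itself was under a peak at 83.7%, 32.9% and 31.9% of genes without UV and at 26.9%, 38.5% and 20.7% at 1 h. At 10 kb upstream the shares were 21.0%, 14.0% and 11.6% without UV and 14.7%, 13.6% and 11.7% at 1 h. The second 1 h library thus had a higher summit than 2 of the unirradiated libraries, and the third had the lowest. Sites without H3K4me3 had lower summits, of 23.3%, 15.9% and 13.6% without UV and 14.7%, 21.7% and 13.4% at 1 h. The summit at start sites remained visible in each 1 h library of ASH1L-/- cells.

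The peaks at promoters differed from others in width more than in height. Their median width was 1171, 564 and 531 bp without UV and 480, 472 and 404 bp at 1 h, against 498, 482 and 436 bp and 413, 352 and 393 bp in intergenic DNA. Their median fold enrichment was 1.86, 1.68 and 1.68 without UV and 1.90, 2.10 and 1.78 at 1 h, and in intergenic DNA 1.81, 1.69 and 1.69 and 1.86, 2.10 and 1.75. Promoters held 3.45% to 4.24% of the peaks of an unirradiated list and 3.60% to 4.41% of those of a 1 h list. The first unirradiated library had by far the widest promoter peaks.

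Among chromosomes, 15 and 10 carried the most cover and the largest raw decreases. Chromosome 15 was covered over 28.5%, 25.8% and 25.5% without UV and 22.8%, 18.3% and 20.3% at 1 h, with no overlap. The change was −6.12 ± 2.72 points (SE, adjusted p = 0.713 over 23 chromosomes, limma). Chromosome 10 was covered over 19.3%, 17.6% and 16.7% without UV and 15.6%, 12.7% and 12.9% at 1 h, again with no overlap. Chromosomes 2, 4, 5 and 21 also had all 1 h libraries below all unirradiated ones, which makes 6 of 23 (26.1%), and no chromosome had them all above (0.0%).

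No chromosome passed the adjusted test in limma (0 of 23, 0.0%), and chromosome 15 alone had p under 0.05 before adjustment (1 of 23, 4.35%). Fitted on the 6 lists alone, chromosome 15 did pass, with an adjusted p of 0.0438 in limma. Scaled, its change was −1.92 points, and of all chromosomes only 7, higher, and 11, lower, had groups without overlap (4.35% each). Chromosome 13 and X were nearly bare of peaks. Chromosome 13 was covered over 3.26%, 1.96% and 1.54% without UV and 3.39%, 1.91% and 2.54% at 1 h, and was the single chromosome with a higher raw mean at 1 h. Chromosome X was covered over 2.06%, 1.22% and 0.94% without UV and 1.57%, 1.16% and 0% at 1 h.

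**Figure D3:**
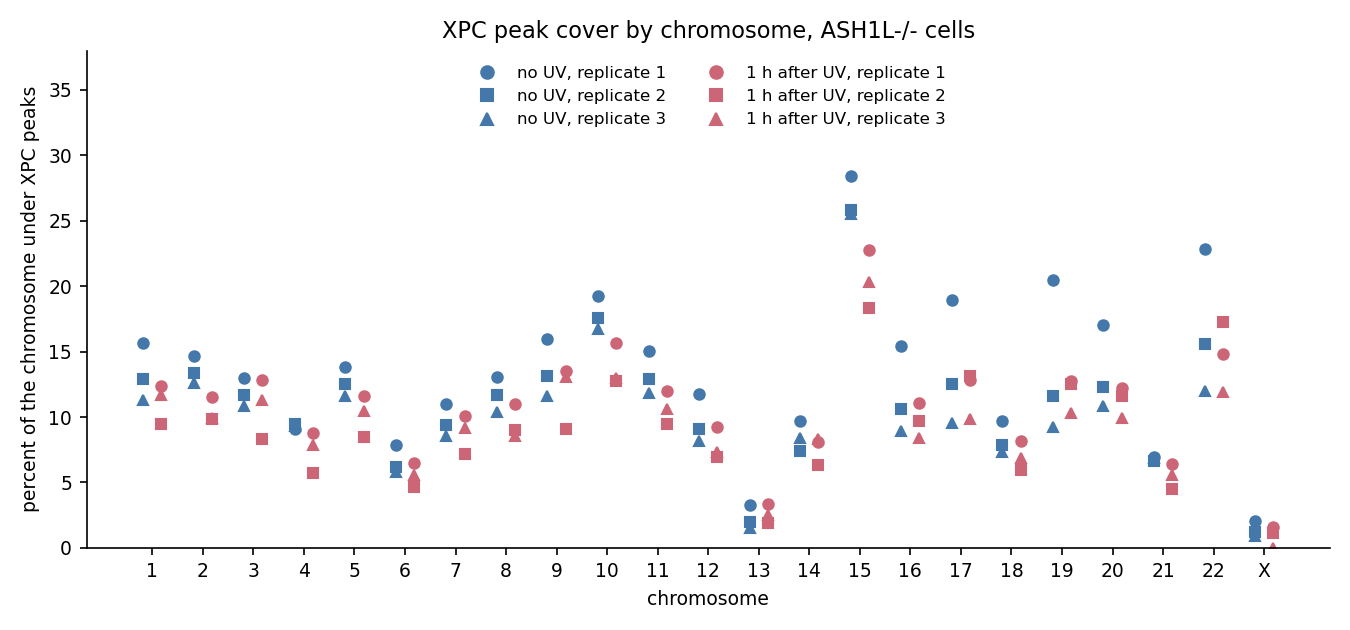
Percent of each chromosome under XPC peaks in ASH1L-/- cells, with 1 point per library. On chromosome 15 the 3 unirradiated libraries lie between 25.5% and 28.5% and the 3 libraries at 1 h between 18.3% and 22.8%.

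In 1 Mb bins the profile along the genome was kept. Over 2921 bins, Pearson's r between libraries was 0.828 to 0.969 within the unirradiated group, 0.812 to 0.952 within the 1 h group and 0.797 to 0.944 between the groups, as a description, since each pair shares the bins' base composition. No bin passed the adjusted test in limma (0 of 2921, 0.0%). Before adjustment 135 bins had p under 0.05 (4.62%), all of them lower at 1 h. In 471 bins (16.1%) all 1 h libraries lay below all unirradiated ones, and in 30 bins (1.03%) above. The median change was −1.15 points, with quartiles of −3.54 and 0.03. Scaled, the median was +0.14 points, and 154 bins (5.27%) were lower and 181 (6.2%) higher without overlap.

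**Figure D4:**
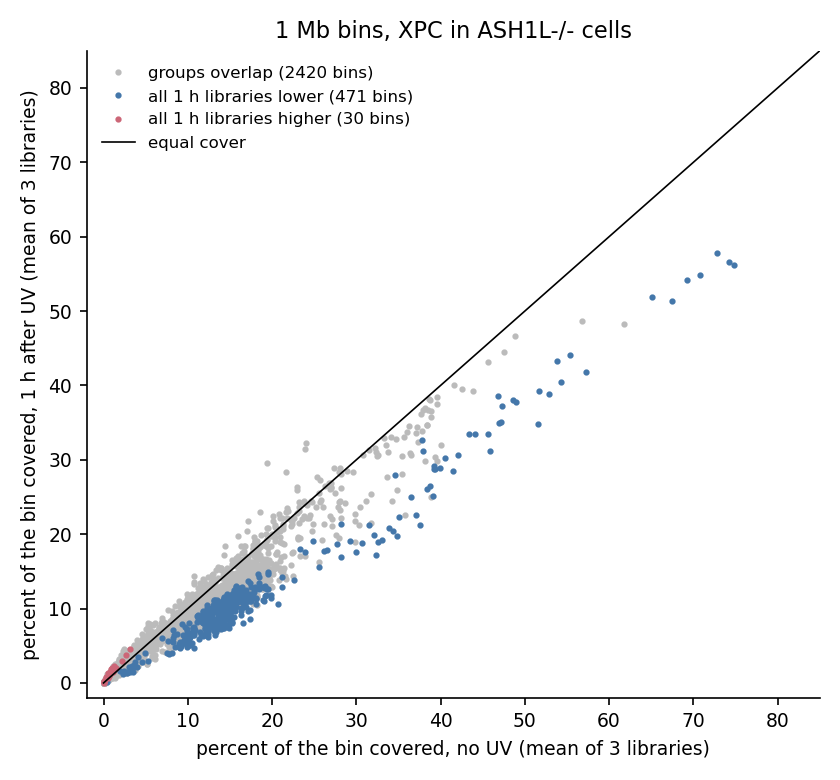
Percent of each 1 Mb bin under XPC peaks, as the mean of 3 unirradiated libraries (x axis) and of 3 libraries at 1 h (y axis) of ASH1L-/- cells, with 1 point per bin and a line of equal cover. The 471 bins that were lower in all 1 h libraries lie below the line over the whole range, and the 30 higher ones lie near 0.

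The raw change followed the level of a bin. With the bins put into 5 equal groups by their mean over all 19 XPC lists, the median change was +0.09 points in the lowest group and −0.21, −1.98, −3.38 and −3.30 points in the others. Of the 30 bins that were higher without overlap, 29 lay in the lowest group, where cover without UV averaged 1.28%. Bins that were lower without overlap were most frequent on chromosome 15, with 42 of 85 (49.4%), and chromosome 2, with 79 of 241 (32.8%), and chromosome 13 had none. Because the 6 lists enter both the level and the change, this is a description.

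The bins with the smallest p among decreases lay on chromosomes 5 and 15, and none passed (adjusted p = 1 in limma for each). At chr5:124000001-125000000, which holds ZNF608, cover was 21.5%, 18.7% and 19.6% without UV and 11.1%, 11.1% and 12.2% at 1 h (−8.49 ± 2.33 points, SE). At chr15:85000001-86000000, with AKAP13, PDE8A and KLHL25, cover was 36.4%, 34.3% and 33.7% without UV and 21.4%, 20.2% and 17.8% at 1 h. At chr15:94000001-95000000, with MCTP2, it was 27.3%, 31.2% and 38.5% without UV and 21.0%, 14.9% and 15.6% at 1 h. These 3 bins had no overlap with or without scaling. The remaining 2 by this rule, at chr5:120000001-121000000 with PRR16 and the gene-free chr5:125000001-126000000, changed by −10.2 and −8.75 points.

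The bins with the smallest p among increases were nearly empty of peaks. At chr2:87000001-88000000, with RGPD1, RGPD2 and PLGLB1, cover was 0.29%, 0.31% and 0.35% without UV and 0.82%, 0.85% and 0.90% at 1 h. RGPD1 and RGPD2 are near-identical copies, so reads there can be shared or lost in filtering. At chr21:10000001-11000000, with TPTE, cover was 1.34%, 0.99% and 1.27% without UV and 2.49%, 1.72% and 2.67% at 1 h. The 3 others, with PCDH9 at chr13:66000001-67000000 and no gene at chr13:90000001-91000000 and chr14:40000001-41000000, changed by +0.98, +0.93 and +1.20 points (limma, adjusted p = 1 each). In raw cover the groups overlapped at the PCDH9 bin and at the chromosome 14 bin.

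A few long stretches were far more densely covered than the rest of the genome, though they hold a small part of all cover. In 29 bins at least 30% of the DNA was under peaks in all 6 libraries, 14 of them on chromosome 15 and 9 on chromosome 10. The longest, chr10:29000001-38000000, holds the start sites of 23 genes and was covered over 64.9%, 67.7% and 71.8% without UV and 60.3%, 45.8% and 53.8% at 1 h. The stretch chr15:57000001-65000000, with 52 start sites, was covered over 54.0%, 51.5% and 53.4% without UV and 42.3%, 37.3% and 40.9% at 1 h. In raw cover both stretches were lower in every 1 h library. Scaled, the mean of the chromosome 10 stretch was 64.6% without UV and 59.9% at 1 h. The scaled mean of the chromosome 15 stretch was 49.98% without UV and 45.4% at 1 h. Scaled, the groups overlapped at both stretches. In WT cells their raw means were 40.9% and 37.2% without UV and 30.6% and 27.9% at 1 h.

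Base composition separated the libraries of a group. Pearson's r between the GC content of a bin and its cover was 0.577, 0.299 and 0.153 without UV and 0.338, 0.603 and 0.259 at 1 h, over 2921 bins. With the share of a bin under H3K4me3, r was 0.557, 0.417 and 0.331 without UV and 0.414, 0.586 and 0.332 at 1 h. Cover followed the GC content of bins most closely in the first unirradiated and the second 1 h library. These were also the libraries with the highest summits at start sites. The change at 1 h had an r of −0.280 with H3K4me3, and of 0.035 after scaling.

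The strongest peaks alone gave a different count. When each list was cut to its 200000 peaks of smallest p, the cover was 162, 127 and 119 Mb without UV and 98.0, 92.8 and 87.3 Mb at 1 h. Chromosomes 4, 5, 7, 10 and 15 then fell (adjusted p = 0.0195 to 0.0199, limma), as did 63 bins, while none rose. Of these bins 26 lay on chromosome 7 between 96000001 and 159000000, where strong peaks covered 12.6%, 11.02% and 13.7% without UV and 4.68%, 5.24% and 4.24% at 1 h. With all peaks the same bins were covered over 28.1%, 26.5% and 24.0% without UV and 28.7%, 17.2% and 29.9% at 1 h, which overlap. In WT cells strong peaks covered 1.49% to 2.90% of these bins without UV and 1.39% to 1.703% at 1 h. Scaled to an equal total, the strong peaks gave no chromosome and no bin past the test.

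No class, chromosome, bin, promoter or gene body passed the test for a difference of the 1 h change between genotypes. In WT cells the raw change was −9.25 points at promoters, −3.84 in gene bodies and −3.25 in intergenic DNA. The change in ASH1L-/- cells minus that in WT cells was 0.73, 1.93 and 1.60 points, with exact permutation p of 0.93, 0.259 and 0.266 (4 and 3 WT libraries, 3 and 3 ASH1L-/- libraries). In limma 36 bins fell (1.23%) and 33 gene bodies changed (0.192%) in WT cells, but the difference of the changes passed in none (0 of 2921, 0.0%), with 52 bins at p under 0.05 before adjustment and a smallest adjusted p of 0.589. At promoters (0 of 18991, 0.0%) and gene bodies (0 of 17181, 0.0%) 213 and 416 had p under 0.05 before adjustment in limma. Chromosome 14 fell in WT cells, from 17.1% to 10.5% (adjusted p = 0.0366, limma), and its difference between genotypes had an adjusted p of 0.893 in limma. One WT library at 1 h held fewer than 500000 peaks, and without it the difference was also not past the test in any bin.

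At single promoters no window passed the test in limma (0 of 18991, 0.0%), with 98 increases and 968 decreases at p under 0.05 before adjustment (5.61%). All 1 h libraries lay below all unirradiated ones at 2200 windows (11.6%) and above them at 361 (1.9%). The median change was −0.336 kb of the 4 kb window, and −0.149 kb when scaled. Scaled, 1730 windows (9.11%) were lower and 583 (3.07%) higher without overlap.

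The smallest p among increases was at TAS2R4, a bitter taste receptor gene on chromosome 7. Its window held 0, 0.84 and 0.36 kb of peaks without UV and 1.56, 3.34 and 2.72 kb at 1 h, with no overlap (+2.14 ± 0.49 kb, SE, adjusted p = 0.668 in limma). Scaled, the increase passed, at +2.57 kb and an adjusted p of 0.0389 in limma, and it was the only window that did (1 of 18991, 0.00527%). It also passed, unscaled, without the first 1 h library (adjusted p = 0.0299 in limma). In WT cells the window held 0.11 kb without UV and 0.10 kb at 1 h, and the difference between genotypes did not pass (adjusted p = 1, limma).

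The other 4 increases of smallest p were at DUSP12, a phosphatase gene, PNPLA2, which codes for adipose triglyceride lipase, ZNF648 and PRR20G. DUSP12 had no peak in any unirradiated library and 2.81, 1.45 and 2.53 kb at 1 h. PNPLA2 had 0, 0.31 and 0 kb without UV and 3.48, 2.21 and 1.63 kb at 1 h. ZNF648 and PRR20G changed by +2.42 and +2.46 kb. All 4 had groups without overlap and an adjusted p of 0.735 to 0.856 in limma.

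Decreases of smallest p included RPL34, a gene of the large ribosomal subunit, with 3.75, 1.82 and 2.46 kb without UV and 0.16, 0.40 and 0 kb at 1 h (−2.49 ± 0.61 kb, SE, adjusted p = 0.668, limma). COQ9, for coenzyme Q synthesis, and CIAPIN1 lie head to head on chromosome 16 and share their window. It held 4, 2.92 and 2.41 kb without UV and 0.31, 0 and 0 kb at 1 h. HMHB1 changed by −1.58 kb and ZNF311, on chromosome 6, by −1.17 kb, the latter with no peak in any 1 h library. HMHB1 passed when the third unirradiated library was left out (adjusted p = 0.0144, limma), as did HAS1, a hyaluronan synthase gene named after its values were seen.

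At gene bodies no gene passed in limma either (0 of 17181, 0.0%), with 150 increases and 748 decreases at p under 0.05 before adjustment (5.23%). Groups did not overlap at 1740 genes that were lower (10.1%) and 568 that were higher (3.31%) at 1 h. The median change was −1.06 points, and +0.57 points when scaled, after which 991 genes (5.77%) were lower and 1204 (7.01%) higher without overlap. By length, the median changed by −0.90 points in genes up to 20 kb, −1.10 up to 100 kb, −1.15 up to 500 kb and −0.86 in the 322 longer ones.

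ALB, the serum albumin gene, had the smallest p among decreases. Peaks covered 18.5%, 38.1% and 30.4% of it without UV and 3.08%, 3.69% and 4.22% at 1 h (−25.4 ± 4.44 points, SE, adjusted p = 0.292, limma). Its promoter carried no H3K4me3. ALB passed without the first unirradiated library (−30.6 points, adjusted p = 0.0223, limma), and so did ZMAT2, which the naming rule had not picked. The body of RAB13, a small GTPase gene of 4.74 kb, was covered over 80.0%, 54.4% and 40.1% without UV and 7.23%, 0% and 0% at 1 h. ZNF404, C5orf34 and RBMXL1 changed by −12.1, −14.2 and −20.0 points with groups apart.

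G6PC2, for a glucose-6-phosphatase of pancreatic islets, had the smallest p among increases. Peaks covered 4.74%, 6.69% and 0% of it without UV and 23.9%, 27.6% and 24.8% at 1 h (+21.6 ± 4.61 points, SE, adjusted p = 0.292, limma). ZNF256, a zinc finger gene on chromosome 19, had 7.67%, 17.6% and 26.4% without UV and 51.4%, 61.4% and 52.97% at 1 h. POMP, a proteasome assembly factor, had no peak without UV and 9.60%, 2.13% and 8.67% at 1 h. RAB2B and OTUD3 changed by +7.47 and +7.66 points. The genes with the smallest p thus came from unrelated functions and included ALB and G6PC2, genes of liver and islet without H3K4me3 here.

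**Figure D5:**
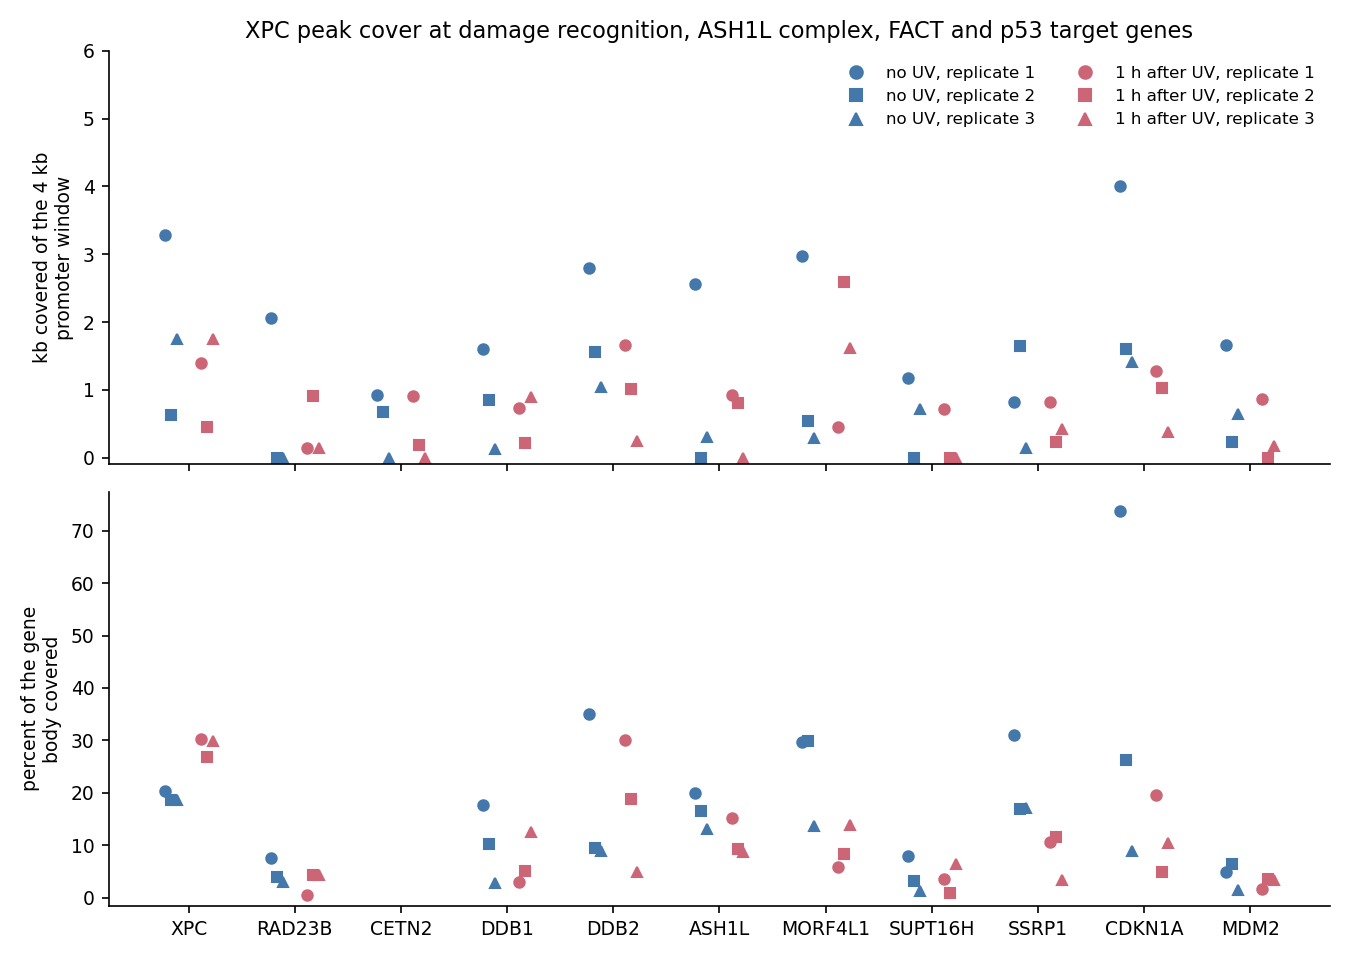
XPC peak cover at genes of damage recognition, the ASH1L complex, FACT and p53 targets, as kb of the 4 kb promoter window (top) and percent of the gene body (bottom), with 1 point per library. At the XPC gene body the 3 libraries at 1 h lie between 26.8% and 30.3%, above the 3 unirradiated ones at 18.6% to 20.3%, while most other genes overlap; CETN2 has no body long enough to be tested.

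Among the damage recognition genes, 9 promoters and 8 gene bodies were tested and none passed. At promoters 1 of 9 was lower without overlap and none higher, against 11.6% and 1.9% of all windows. The median change was −0.292 kb, against −0.336 kb over all windows. The lower promoter was that of CUL4B, a scaffold of ubiquitin ligases with DDB1, with 2.78, 1.11 and 1.03 kb without UV and 0.31, 0.69 and 0 kb at 1 h. DDB2, whose product senses the dimer, had 2.80, 1.56 and 1.04 kb without UV and 1.66, 1.02 and 0.24 kb at 1 h, which overlap. DDB1, RAD23B, CETN2 and XPC itself changed by −0.24, −0.29, −0.17 and −0.69 kb with overlapping groups.

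At gene bodies none of the 8 was lower without overlap and 2 were higher, against 10.1% and 3.31% of all gene bodies. XPC was among the higher ones. It was covered over 20.3%, 18.6% and 18.7% without UV and 30.3%, 26.8% and 30.0% at 1 h. The change was +9.81 ± 7.73 points (SE, adjusted p = 1, limma). In WT cells mean cover without UV and at 1 h was 20.9% and 18.1% at XPC, and the difference between genotypes did not pass (adjusted p = 1, limma).

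In the later steps of repair no gene passed, and the counts of groups apart stand beside 11.6% of all windows that were lower and 1.9% that were higher without overlap. Of 7 promoters for transcription-coupled repair 1 was lower without overlap, TCEA1, for the elongation factor TFIIS, with 3.69, 0.90 and 1.68 kb without UV and 0.49, 0.20 and 0 kb at 1 h. Of 16 promoters for TFIIH, XPA, RPA and the excision nucleases 4 were lower and 1 higher without overlap. ERCC1, a nuclease subunit, changed by −1.41 kb and RPA3 by −1.12 kb, the latter to 0 kb in every 1 h library. The body of ERCC2, a TFIIH helicase, had 5.81%, 4.41% and 30.3% without UV and 24.3%, 43.3% and 26.96% at 1 h, which overlap. Of 19 promoters for repair synthesis and ligation 3 were lower without overlap, while RFC5, for a clamp loader subunit, differed by −1.09 kb with overlapping groups.

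Among the 5 genes of the ASH1L complex and FACT, no promoter had groups apart. MORF4L1, for MRG15, was covered in its body over 29.6%, 29.9% and 13.7% without UV and 5.90%, 8.40% and 13.9% at 1 h (−15.0 ± 4.56 points, SE, adjusted p = 0.573, limma), and the groups just overlap. ASH1L had 19.9%, 16.6% and 13.01% without UV and 15.2%, 9.27% and 8.77% at 1 h. Of the 5 gene bodies 1 was lower without overlap, against 10.1% of all gene bodies, and none passed. This was SSRP1, a subunit of the FACT histone chaperone, with 31.0%, 16.8% and 17.1% without UV and 10.7%, 11.5% and 3.37% at 1 h. Its p before adjustment was 0.247 in limma. In WT cells its mean cover was 32.2% without UV and 5.78% at 1 h. The other subunit, SUPT16H, changed by −0.46 points. Of 11 promoters of H3K4 methyltransferases and COMPASS core subunits 8 had a lower mean, and 2 were lower without overlap, against 11.6% of all windows. These were KMT2A and ASH2L, with changes of −1.69 and −1.49 kb, and ASH2L overlapped when scaled.

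Stress genes had a lower mean at nearly every promoter, with few groups apart. Over all windows 13433 of 18991 had a lower mean. Of 25 p53 target promoters 24 had a lower mean at 1 h and 3 were lower without overlap, against 11.6% of all windows, with a median of −0.646 kb. Their mean was 2.60, 1.13 and 0.80 kb without UV and 0.92, 1.09 and 0.55 kb at 1 h. The groups thus overlapped, and the first unirradiated library lay far above. CDKN1A, for the cell cycle inhibitor p21, had 4, 1.60 and 1.41 kb without UV and 1.28, 1.03 and 0.37 kb at 1 h. MDM2, for the ligase that degrades p53, changed by −0.50 kb with overlap, and GADD45A by −1.80 kb with groups apart. The body of GDF15, a secreted stress factor, is here the part outside promoter windows and not the whole gene. It was covered over 100%, 79.6% and 69.4% without UV and 0%, 0% and 43.7% at 1 h.

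Of 25 promoters of immediate early genes 23 had a lower mean and 6 were lower without overlap, against 11.6% of all windows, with a median of −0.907 kb. DUSP5, a MAP kinase phosphatase gene, had 3.69, 1.54 and 3.19 kb without UV and 0.02, 0.99 and 0 kb at 1 h, and NR4A3 changed by −1.76 kb. The body of FOSL1 had 69.4%, 28.7% and 28.4% without UV and 8.61%, 5.51% and 1.66% at 1 h, and that of KLF10 changed by −22.2 points. The mean over these promoters was 3.21, 1.17 and 1.07 kb without UV and 0.97, 1.26 and 0.59 kb at 1 h, so the groups overlapped and the first unirradiated library lay far above. Scaled, the medians of both lists were −0.395 and −0.614 kb, against −0.149 kb over all windows.

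The counts for larger families stand beside 11.6% of all windows that were lower and 1.9% that were higher without overlap. Of 81 cytosolic ribosomal protein promoters 13 were lower and none higher without overlap (median −0.662 kb), with RPL34 and RPS9 leading. Of 63 histone gene promoters 9 were lower and 2 higher. H3C11, a histone H3 gene, had 0.33, 0.35 and 0.14 kb without UV and 3.71, 2.14 and 1.32 kb at 1 h, and H4C9 changed by −1.30 kb. Histone genes are near-identical in sequence, so their values are uncertain. Of 38 HOX promoters 6 were lower and none higher, HOXC11 among them with −1.64 kb. Olfactory receptor genes, of which 19 of 400 carried H3K4me3, had 36 of 374 promoters lower and 15 higher, with a median of −0.04 kb, and their family members also share sequence. Of 212 chromosome 19 zinc finger promoters 29 were lower and 3 higher, and of 309 promoters of genes over 500 kb 41 were lower and 3 higher. No member of these lists passed in limma at either window.

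For the lineage markers, too, counts stand beside 11.6% of all windows that were lower and 1.9% that were higher without overlap. Of 10 mesenchymal promoters 1 was lower (PRRX1) and 1 higher without overlap (TWIST1, from 0 kb in each library to 1.02, 0.99 and 1.12 kb). No epithelial and 1 blood cell promoter, that of CD14, was lower without overlap. The part of the short CLDN7 gene that lies outside the promoter window, tested as its body, was under a peak over 100% of its length in all unirradiated libraries and 0% in all 1 h libraries (adjusted p = 0.415, limma), and it passed when the 6 lists were fitted alone (adjusted p = 0.0114, limma).

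Base by base, lists of the same group shared little more than lists of different groups. Pairs of unirradiated libraries shared 14.9% to 15.9% of their joint cover, pairs at 1 h 12.3% to 14.3%, and an unirradiated with a 1 h library 10.3% to 14.3%. Tiles covered in all 3 libraries at 1 h and in none without UV numbered 4008, the reverse 10740, and 3208 tiles were covered in all 6. The genome held 2910457 tiles without unknown bases, and the counts are not scaled. Lost tiles were richer in promoters, at 10.2%, than gained tiles, at 3.37%, against 2.53% of all tiles. Lost tiles also overlapped H3K4me3 more often, with 13.5% against 4.34%. Tiles covered in all 6 libraries resembled the lost ones, with 11.3% in promoters. The median GC content was 46.0% in gained, 45.5% in lost and 39.8% in all tiles, and TT or AA steps numbered 16.1, 16.4 and 20.1 per 100. Gained and lost tiles were thus alike in base composition and differed in the share of promoters. Most stood alone, with 112 runs of 2 or more tiles among 3894 gained runs and 537 among 10164 lost runs.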

How the data were processed

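Chromatin immunoprecipitates of XPC were sequenced by the authors as single-end reads, trimmed with Trim Galore 0.6.5, aligned to hg38 with BWA 0.7.17-r1188, filtered for low mapping quality, duplicates and blacklisted regions with Picard, SAMtools 1.7 and bedtools 2.29.2, and called as broad peaks with MACS2 2.2.7.1 in each library by itself. The deposited peak lists give the fold enrichment over the background of XPC-/- cells as a ratio and the −log10 p and q that the authors' peak caller wrote. They hold no read counts, so precision rests on the 3 libraries of a group. Those 3 lists shared the same pooled background and are therefore not fully independent in the tests.

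The bases under peaks were merged in each list and taken as a percent of the known bases of each genome class, chromosome, 1 Mb bin and gene body, or as kb of the promoter window of 4 kb, with start sites from GENCODE 44. Features covered in fewer than 3 lists, bins with under 50% known bases and the bodies of genes under 4 kb were left out. Chromosomes, bins, promoters and gene bodies were tested with limma 3.58.1 (R 4.3.3) over all 19 XPC lists, which share one estimate of spread, with Benjamini-Hochberg adjustment over all features and a threshold of 0.05. Classes were compared by exact permutation of libraries. The scripts were tested on simulated data. Named bins and genes were the 5 with the smallest p in each direction, plus list members with the smallest p and the repair genes of the plots, of which some are left out for length. The members and gene lists were chosen with earlier results of these data known. Alternatives were an equal total, stricter peaks, other windows, the 6 lists alone, a replicate block and leaving out each library. One gene of the damage recognition list is not reported here by name.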

Additional observations from a re-analysis of the deposited data

How the results depend on the processing

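Values are percentage points for classes and numbers of features that passed in limma otherwise, and the cause of each move was not tested unless the setting itself removes samples or peaks. At an equal total, promoters without H3K4me3 turned to +1.59 and gene bodies to +0.24, and 1 promoter rose. The strongest 200000 peaks gave 5 chromosomes, 63 bins and 7 gene bodies that fell and 1 gene body that rose. Fits on the 6 lists alone gave 1 chromosome, 15, and 2 gene bodies that fell, CLDN7 and a readthrough gene on chromosome 14 that has no symbol in GENCODE. The difference of the 1 h change between genotypes turned to −3.67, −4.29 and −2.34 at all, marked and unmarked promoters at an equal total, and to −1.99, −2.16 and −1.62, with −0.73 in gene bodies and −0.53 in intergenic DNA, for the strongest peaks. These peaks gave a difference at 1 gene body that rose and 2 that fell, and leaving out lists under 500000 peaks gave 1 that fell.

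Settings chosen after seeing the data joined an equal total with another choice. Without the first unirradiated library, all, marked and unmarked promoters and gene bodies changed by +1.73, +1.42, +2.40 and +0.20, and 2 gene bodies fell. For the strongest peaks, unmarked promoters and gene bodies changed by +1.55 and +0.22, 4 gene bodies rose (MRPL47, THOC3, NABP2 and THAP8) and 2 fell (CPA4 and PABIR1), and 1 differed between genotypes. Without lists under 500000 peaks 1 gene body differed.

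Leaving out each of the 6 libraries in turn, unmarked promoters changed by −2.95 to +0.67, promoters that rose numbered 0 to 1 and that fell 0 to 2, and gene bodies that rose 0 to 1 and that fell 0 to 2. TAS2R4 rose without the first 1 h library, the gene bodies of RFPL4A and HNRNPH2 rose without the second and the third, HMHB1 and HAS1 fell without the third unirradiated library, and the gene bodies of ALB and ZMAT2 fell without the first. All of these were named after their values were seen, except TAS2R4, HMHB1 and ALB. The difference between genotypes ranged from −3.77 to 8.79 at promoters, −5.17 to 11.6 at marked and −0.80 to 2.81 at unmarked ones, and 0 to 1 gene bodies differed upward. Tiles gained and lost numbered 24157 and 35423 where any base counted, 73435 and 121764 with 2 of 3 lists, 493 and 3024 for the strongest peaks and 0 and 0 at a −log10 p of 3, and 5093 to 21502 and 12945 to 38038 with a library left out.

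The replicate numbers were not taken to pair the samples, as the deviations of same-numbered libraries had r of −0.01, −0.29 and 0.57. With 3 libraries in each group these values cannot exclude pairing. With the number as a replicate block no count changed at the raw scale, the promoter change was −8.53 and its difference between genotypes 6.10, and at an equal total 1 promoter rose, TAS2R4. Peaks at a −log10 q of 1.3 were too few to fit bins, promoters or gene bodies, as were peaks at a −log10 p of 3 at promoters. Of the values for single named features under all settings, 1709 stayed within the spread and on the same side of the threshold, 206 moved, 10 came to pass and none reversed.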
